A study of Homo sapiens with 12 samples.

Results

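HL60 cells carrying a TFEB S211A vector were compared with HL60 cells carrying the empty vector (EV), both kept in doxycycline. The 6 libraries of this comparison, 3 per vector, are 6 of the 12 in the study, and the comparison was made over the 23128 of 57820 listed genes whose mean deposited value over the 12 libraries was at least 10. HL60 is an established human acute myeloid leukaemia line of promyelocytic character. The cells had been transduced with pRRL-TFEBS211A-puro, which expresses TFEB S211A only when doxycycline is given, or with pRRL-EV-puro, which carries no insert, so that the drug was present on both sides and the vectors differed. Both groups were grown in RPMI-1640 with 10% FBS and received doxycycline at 1 ug/ml for 48 h. The other 6 libraries came from the same 2 lines given vehicle, by their titles and treatment labels, although the treatment protocol of all 12 samples lists the drug. The 3 libraries of a group are labelled as biologically independent experiments, and nothing in the labels says whether each line was a pool of transduced cells or a single clone.

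TFEB is a transcription factor of the MiT/TFE family, a master regulator of genes for lysosomes and autophagy. When nutrients are plentiful, the kinase complex mTORC1 phosphorylates TFEB at the lysosomal surface and it is held in the cytosol, and when mTORC1 activity falls, TFEB enters the nucleus and binds short palindromic sites near the start of its target genes. In the S211A form the serine at a main mTORC1 site is replaced by alanine, so that this retention is lost.

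Expression is given as a rescaled read count, the deposited value of a gene divided by 1 factor per library. This factor, the expressed-gene factor, was the median ratio over nuclear genes with a mean deposited value of at least 200 (7290 genes, called expressed here), and values divided by it are said to be on the expressed-gene scale. Log2 differences are TFEB minus EV on log2(value + 1), with the standard error (SE) from limma, and adjusted p is limma's with Benjamini-Hochberg adjustment over all 23128 genes. A log2 difference at low counts is understated by the added 1. Because the deposited and the expressed-gene scale differed between the vectors, a gene is called higher or lower on both scales where its adjusted p was under 0.05 in the same direction on each. The scales differ only by 1 factor per library, so they are not independent checks. A call on both was in effect the call of the stricter scale, the expressed-gene scale for rises and the deposited scale for falls.

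The recovered read totals were 11681639, 8776987 and 4474007 in the EV libraries and 14982978, 20267420 and 13931354 in the TFEB libraries, so every EV library was shallower than every TFEB library. Mitochondrially encoded genes took 30.4% ± 3.70 (SD, n = 3) of the EV reads and 16.0% ± 2.38 (SD, n = 3) of the TFEB reads. Nuclear genes with a mean under 200 took 8.43% to 18.2% of the EV reads and 4.86% to 5.78% of the TFEB reads. The groups did not overlap in depth or in either share, and the exact two-sided permutation p was 0.1 for each, the smallest that 3 against 3 libraries allow. The deposited values did not even out depth. Their totals were 4.01e+06 to 9.92e+06 in the EV and 1.57e+07 to 2.18e+07 in the TFEB libraries. There 1 read stood for 0.839 to 0.897 in EV and for 1.05 to 1.22 in TFEB. The expressed nuclear genes had a median log2 difference of 0.01 on the expressed-gene scale and of 1.38 on the deposited scale, a shift of 1.37. How much of this shift was depth was not tested. Tested genes under a mean of 200, with the mitochondrial genes, had a median of -1.57 on the expressed-gene scale, so a fall of a weakly expressed gene is read below against that value. No spiked-in standard was used in the comparison, and levels are relative to the expressed genes of the same library.

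**Figure D1:**
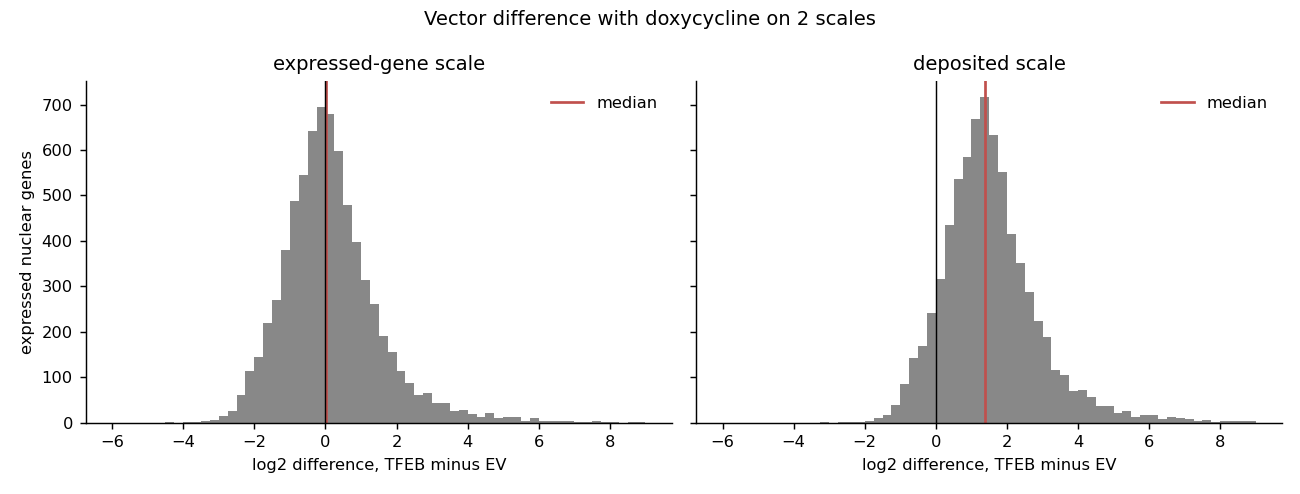
Log2 differences of the 7290 expressed nuclear genes between TFEB and EV, both with doxycycline, in equal bins; the y axis counts genes, the red line is the median and the black line marks 0. The same distribution sits around 0.01 on the expressed-gene scale and around 1.38 on the deposited scale.

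On both scales 3276 genes were higher in the TFEB libraries, which is 14.2% of the genes tested, and 1242 were lower, which is 5.37%. With a required fold of at least 2, limma called 1078 higher and 25 lower on both scales. The 3276 were all the genes higher on the expressed-gene scale, and the 1242 were all the genes lower on the deposited scale. In total, 13316 genes (57.6%) were lower on the expressed-gene scale, 12074 of them on that scale only. On the deposited scale 6282 (27.2%) were higher, 3006 of them on that scale only. Without EV replicate 3, the shallowest library, 7736 genes were lower on the expressed-gene scale, and without TFEB replicate 2 the number was 7860. Without EV replicate 2 the genes lower on both scales numbered 672, and without TFEB replicate 2 they numbered 775. Among the expressed genes 2657 (36.4%) were higher on both scales, 4068 (55.8%) were higher on the deposited scale, 2584 (35.4%) were lower on the expressed-gene scale and 50 (0.686%) were lower on both. Rises are therefore given below on both scales, and falls as those of expressed members on the expressed-gene scale, with the value on the deposited scale beside the genes named as lower. List counts of rises are read beside 14.2% for tested members and 36.4% for expressed members. List counts of falls are read beside 35.4% for expressed members. Counts of genes lower on both scales are read beside 5.37% for tested and 0.686% for expressed members. No gene was higher on the deposited scale and lower on the expressed-gene scale. The TFEB and the EV libraries did not overlap on either scale for 7543 of the 23128 tested genes. Of the 7290 expressed genes this held for 3165, so groups that do not overlap were common.

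The targeted gene was higher in the libraries labelled TFEB. TFEB stood at 140, 131 and 255 rescaled reads in the EV libraries and at 13614, 12450 and 10663 in the TFEB libraries. All 3 TFEB libraries were far above all 3 EV libraries, by 72.3-fold, a log2 difference of 6.18 (SE 0.22, limma adjusted p = 7.8e-12). The deposited counts do not separate reads of the transgene from those of the endogenous gene. With vehicle, TFEB stood at 88.8 to 111 in the EV line and at 116 to 168 in the TFEB line. The other family members did not follow it: TFE3 had a log2 difference of -0.33 and MITF of -0.52, neither past limma's threshold on the expressed-gene scale (adjusted p = 0.14 and 0.19). TFEC, a myeloid member of the family, had a log2 difference of -1.29 on that scale (limma adjusted p = 0.0051) and an adjusted p of 0.89 on the deposited one.

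**Figure D2:**
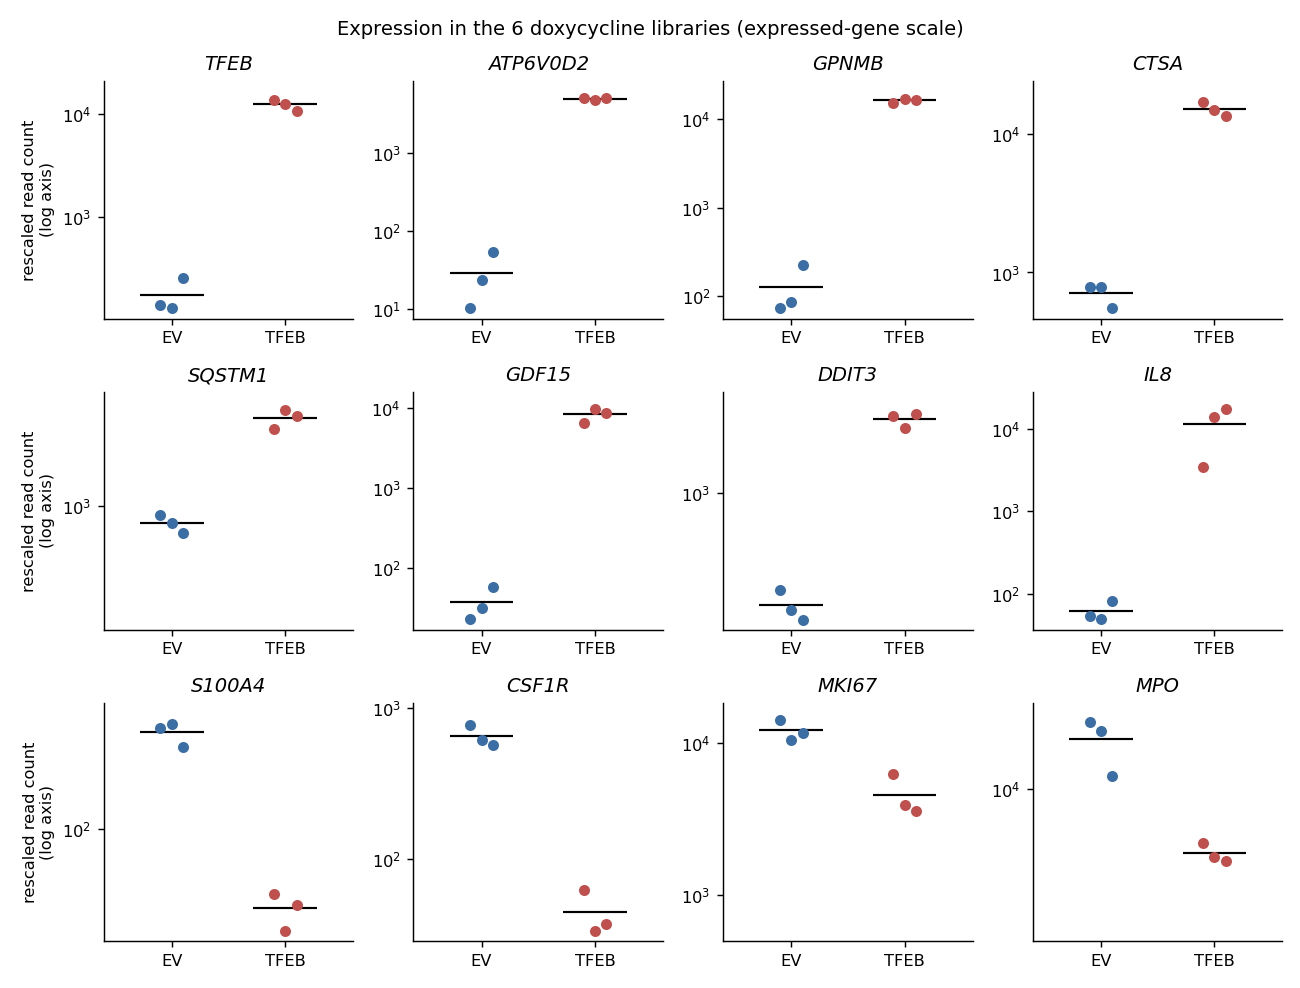
Rescaled read counts of 12 genes in the 6 doxycycline libraries, on log axes; each point is 1 library (3 EV, blue, and 3 TFEB, red) and the bar is the group mean. TFEB, the lysosomal genes, GDF15, DDIT3 and IL8 are higher in every TFEB library, and S100A4, CSF1R, MKI67 and MPO are lower in every TFEB library.

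Genes of the lysosome rose in number. The V-ATPase is the proton pump that acidifies lysosomes, built of a membrane V0 sector and a cytosolic V1 sector. Of its 23 tested subunit genes, of 24 listed, 16 were higher on both scales. The median log2 difference of the 23 was 2.26, where it was -1.25 over all tested genes. The 17 expressed subunit genes had a median of 2.785, where all expressed genes had 0.01. The 16 held both sectors and the 2 accessory subunits ATP6AP1 and ATP6AP2. ATP6V0D2, a V0 subunit known from osteoclasts and macrophages, was counted at 10.4, 23.6 and 54.5 in the EV libraries and at 5187, 4805 and 5118 in the TFEB libraries. This was among the largest rises of the comparison, with a log2 difference of 7.66 (SE 0.52, limma adjusted p = 6.4e-09). Of the V1 subunits, ATP6V1H rose from 141, 109 and 181 to 1829, 2143 and 2064. ATP6V1F rose from 789, 684 and 447 to 9203, 7797 and 7450. Neither gene's groups overlapped, and the log2 differences were 3.83 and 3.70. The 7 tested subunit genes that were not higher were ATP6V0A2, whose log2 difference was -0.48, called lower on the expressed-gene scale alone (0.89 on the deposited scale, the call lost without EV replicate 3), and the isoforms ATP6V1E2, ATP6V1C2, ATP6V1G2, ATP6V1B1, ATP6V0E2 and ATP6V0A4, with values from -1.77 to -0.75, all 6 likewise called lower on the expressed-gene scale alone (-0.42 to 0.61 on the deposited scale). Those isoforms lie under the mean of 200, where the median was -1.57.

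Among lysosomal proteases 7 of 16 were higher on both scales, all 7 among the 11 expressed members. Another 3 of the 11 were lower on the expressed-gene scale, beside 35.4% of all expressed genes. The list median was 0.07, beside -1.25 over all tested genes. The 11 expressed members had 1.56, beside the 0.01 of all expressed genes. The aspartic protease CTSD (cathepsin D) was counted at 1238, 955 and 685 in the EV libraries and at 47917, 52735 and 45123 in the TFEB libraries. CTSA, the protective protein that stabilises beta-galactosidase and neuraminidase, went from 784, 788 and 551 to 17026, 15085 and 13586. Both rises are far outside the spread of either group, with log2 differences of 5.70 (SE 0.21) and 4.44 (SE 0.16) and limma adjusted p of 1.0e-11 for each. DPP7, CTSL, TPP1, CTSS and CTSB were higher by 1.36 to 2.73. CTSC, the activator of granule serine proteases, was counted at 1081, 1175 and 1457 in EV and at 518, 704 and 781 in TFEB. Its groups did not overlap either, in the opposite direction, with a log2 difference of -0.90 (limma adjusted p = 0.00072) that on the deposited scale was 0.48 (adjusted p = 0.50).

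Glycosidases and sulfatases strip sugars and sulfates from lysosomal cargo. On both scales 13 of 23 glycosidase and sulfatase genes were higher, 11 of them among the 17 expressed members. On the expressed-gene scale 5 of the 17 were lower, beside 35.4% of all expressed genes. The median was 0.66. NEU1, a sialidase, stood at 323, 295 and 370 in EV and at 1666, 1556 and 1662 in TFEB. Its groups did not overlap, with a log2 difference of 2.31 (SE 0.15, limma adjusted p = 2.7e-09). IDS, which removes sulfate from iduronate, went the other way, from 741, 632 and 427 in EV to 305, 264 and 276 in TFEB, a log2 difference of -1.05 on the expressed-gene scale (limma adjusted p = 0.00096) against 0.32 on the deposited one.

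Lipid-handling genes of the lysosome held larger rises, with 9 of 14 higher on both scales and a median of 1.88. GM2A, the activator that presents GM2 ganglioside to its hydrolase, was counted at 875, 674 and 654 in EV and at 37329, 41328 and 39544 in TFEB. Its log2 difference of 5.75 had an SE of 0.13 (limma adjusted p = 7.8e-14), so its TFEB and EV libraries were apart by far more than the spread. The acid phosphatase ACP5 went from 20.7, 28.9 and 77.4 to 693, 1199 and 1262, and the ceramidase ASAH1 from 326, 350 and 298 to 3371, 3313 and 3445. The saposin precursor PSAP and the cholesterol exporters NPC1 and NPC2 were also higher, by 2.02 to 2.96. PPT2, a thioesterase, was low throughout, at 24.5, 30.2 and 37.3 in EV and 7.35, 4.74 and 1.80 in TFEB. It was lower on both scales (log2 difference -2.61 and -1.37), a call that was lost without TFEB replicate 3.

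The lysosomal membrane and the traffic that supplies it followed. In the membrane list 17 of 25 tested genes (of 26 listed) were higher on both scales, with a median of 1.15. GPNMB, a membrane glycoprotein of melanosomes and macrophage lysosomes, rose from 73.4, 85.3 and 224 to 15324, 17183 and 16513. The tetraspanin CD63 rose from 825, 732 and 1052 to 19303, 20180 and 21411. The EV library with the highest GPNMB and CD63 counts still lay far below every TFEB library, and the log2 differences were 7.17 (SE 0.47) and 4.56 (SE 0.14). LAMP1, the amino acid transporter SLC36A1 and the calcium channel MCOLN1 were higher by 2.63, 2.73 and 1.77. The transporter ABCA2 had 1715, 1475 and 972 rescaled reads in EV and 333, 255 and 231 in TFEB, and was the one of the 16 expressed members that was lower on the expressed-gene scale (log2 difference -2.32, limma adjusted p = 5.4e-08, and -0.95 with adjusted p = 0.19 on the deposited scale).

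In endolysosomal trafficking 18 of 25 genes were higher on both scales, the other 7 were not lower on either scale, and the median was 1.28. IGF2R, the receptor that carries mannose 6-phosphate enzymes to lysosomes, stood at 1977, 1671 and 1706 in EV and at 21248, 22059 and 18912 in TFEB. RAB7A, the late endosomal GTPase, stood at 4331, 3745 and 5290 in EV and at 36754, 39141 and 40162 in TFEB. Both sets of libraries were separate, with log2 differences of 3.54 and 3.13 (SE 0.12 and 0.16). VPS18 and VPS11, of the core shared by the HOPS and CORVET tethering complexes, rose by 2.90 and 1.64, while VPS39, a subunit of HOPS alone, had -0.07 and VPS8, a subunit of CORVET alone, had -0.35.

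Promoters of these genes were searched for the palindrome TCACGTGA, the core of the element through which TFEB is known to bind lysosomal genes, and for the 6 bases CACGTG that it contains. Each reads the same on both strands. The windows ran from 250 bases before to 50 bases after a RefSeq gene start (GRCh38.p14), and a gene with several starts has several windows. Of the 23128 tested genes 13181 matched a window, and of the 116 lysosome, autophagy and nutrient-sensing genes higher on both scales 84 did. TCACGTGA lies in 0.98% of all 35116 windows and in 12.6% of the 111 windows of those 84 genes, and CACGTG in 7.26% and 23.4%. In the windows of expressed nuclear genes the shares were 1.97% and 10.7%. With list members taken whether called or not, TCACGTGA lay in 0% (lipid handling, autophagy receptors) to 29.2% (trafficking) of a list's windows. Whether the share differed between called and uncalled members was not tested. The 13 genes with TCACGTGA were CTSA, IGF2R, ATP6V0D1, SLC36A1, LAMP1, ATP6V1G1, ATG3, MCOLN1, VPS11, GALNS, GNPTG, RAB5A and HPS3. Shown are 120 bases upstream of the start for the 4 with the largest rises, with each TCACGTGA in capitals. The IGF2R stretch was shifted upstream so that it holds all its motifs, the first of which starts 133 bases before the gene start. They lie at chr20:45891215-45891334 on the plus strand (CTSA), chr6:159968945-159969064 on the plus strand (IGF2R), chr16:67481158-67481277 on the minus strand (ATP6V0D1) and chr5:151447483-151447602 on the plus strand (SLC36A1), all upstream of an annotated gene start.
CTSA: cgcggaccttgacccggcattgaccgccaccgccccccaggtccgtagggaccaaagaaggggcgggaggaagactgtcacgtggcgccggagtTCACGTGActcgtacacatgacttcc
IGF2R: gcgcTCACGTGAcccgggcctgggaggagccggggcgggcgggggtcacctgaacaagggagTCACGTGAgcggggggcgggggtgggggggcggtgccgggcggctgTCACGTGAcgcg
ATP6V0D1: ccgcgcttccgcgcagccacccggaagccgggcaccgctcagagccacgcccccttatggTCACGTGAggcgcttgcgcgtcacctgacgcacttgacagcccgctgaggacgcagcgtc
SLC36A1: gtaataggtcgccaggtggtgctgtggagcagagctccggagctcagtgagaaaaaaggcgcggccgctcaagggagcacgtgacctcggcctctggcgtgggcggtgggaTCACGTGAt
IGF2R has the motif 3 times in its window and the other 3 genes once, starting 26 bases before the start in CTSA, 60 in ATP6V0D1 and 9 in SLC36A1. Over the expressed genes with a window, TCACGTGA was found in 3.02% of the 3142 windows of genes higher on both scales, in 1.81% of the 2271 windows of genes not called and in 0.984% of the 2947 windows of genes lower on the expressed-gene scale. By size of the log2 difference, the share was 0.87% from -2 to -1, 1.57% from -1 to 0, 2.07% from 0 to 1, 3.8% from 1 to 2, 3.37% from 2 to 3 and 2.29% at 3 or more, the last being 6 of 262 windows. A match says that the letters are there, and binding was not measured.

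**Figure D3:**
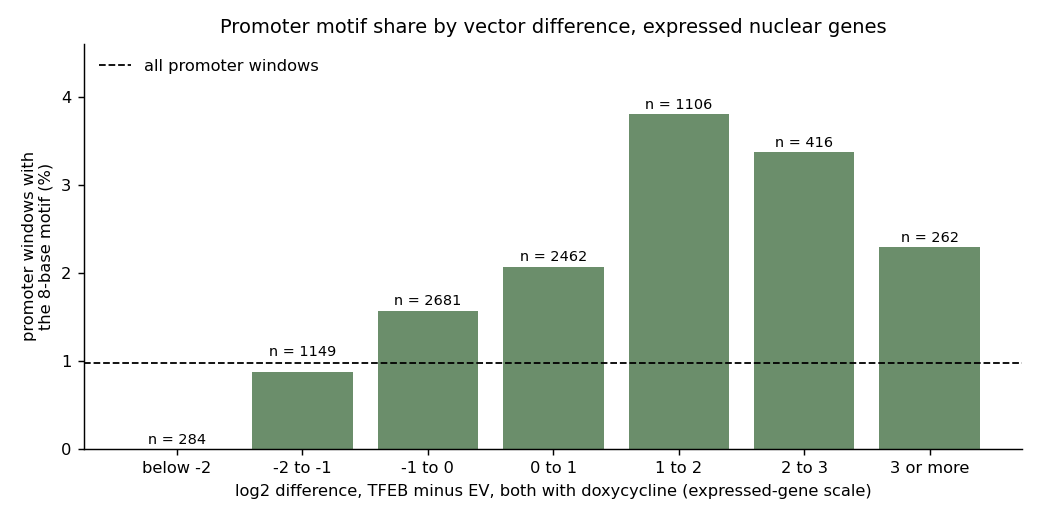
Share of promoter windows (%) of expressed nuclear genes that hold the 8-base palindrome, by bins of the log2 difference between TFEB and EV with doxycycline; n is the number of windows per bin and the dashed line is the share over all 35116 windows, 0.98%. The highest share is 3.8%, in the bin from 1 to 2, and none of the 284 windows in the bin below -2 holds the motif.

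Core autophagy genes, which build and seal the autophagosome, were split. Of 32 genes 14 were higher on both scales, and the list median was 0.03, beside -1.25 over all tested genes. The 24 expressed members had a median of 0.36, beside the 0.01 of all expressed genes. Of the 24 expressed members 12 were higher on both scales, beside 36.4% of all expressed genes. On the expressed-gene scale 7 of the 24 were lower, beside 35.4% of all expressed genes. MAP1LC3B, whose lipid-bound protein coats autophagosomes, stood at 402, 333 and 235 in EV and at 2855, 2537 and 2435 in TFEB. WIPI1, which binds the forming membrane, rose from 91.3, 144 and 247 to 903, 1275 and 1310. Both were outside the spread, at log2 differences of 3.04 (SE 0.19) and 2.94 (SE 0.32). The kinase ULK1, which starts autophagy, stood at 486, 462 and 381 in EV and at 230, 226 and 210 in TFEB, a log2 difference of -0.99 (limma adjusted p = 6.0e-05) that was 0.38 on the deposited scale. GABARAP, GABARAPL1 and GABARAPL2, of the same family as MAP1LC3B, were higher on both scales by 1.18, 1.30 and 2.20, while BECN1, ATG5 and ATG14 had -0.02, 0.09 and -0.18.

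Cargo receptors, which link waste to the autophagosome, were higher on both scales in 7 of 11 cases, with a median of 1.75. OPTN, a receptor for mitochondria and bacteria, rose from 28.2, 42.0 and 63.1 to 433, 648 and 742. SQSTM1 (p62) rose from 882, 774 and 665 to 3194, 4256 and 3921. Neither gene overlapped between the groups, with log2 differences of 3.78 (SE 0.44) and 2.29 (SE 0.13). BNIP3 and BNIP3L, receptors on mitochondria, were higher by 1.76 and 1.69.

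The nutrient-sensing genes around mTORC1 include the pathway that acts on TFEB itself. Of 27 genes 15 were higher on both scales, and 4 of 21 expressed members were lower on the expressed-gene scale, with a median of 0.78. FNIP2, partner of folliculin in the complex that lets Rag GTPases present TFEB to mTORC1, stood at 279, 308 and 427 in EV and at 10452, 9339 and 8843 in TFEB. The Rag GTPases RRAGC and RRAGD rose from 196, 205 and 281 to 2083, 1662 and 1760 and from 761, 649 and 660 to 6659, 4966 and 4497. All 3 were separate between the groups, with log2 differences of 4.84, 3.02 and 2.94 (SE 0.17, 0.16 and 0.14). FLCN, FNIP1, RRAGA and RHEB were higher by 1.10 to 1.76. SESN3, a sestrin that restrains mTORC1, went down from 697, 887 and 880 to 76.0, 73.4 and 93.7 (log2 difference -3.33, limma adjusted p = 4.9e-10, and -1.95 with adjusted p = 0.00065 on the deposited scale), whereas SESN2 was higher by 1.67.

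**Figure D4:**
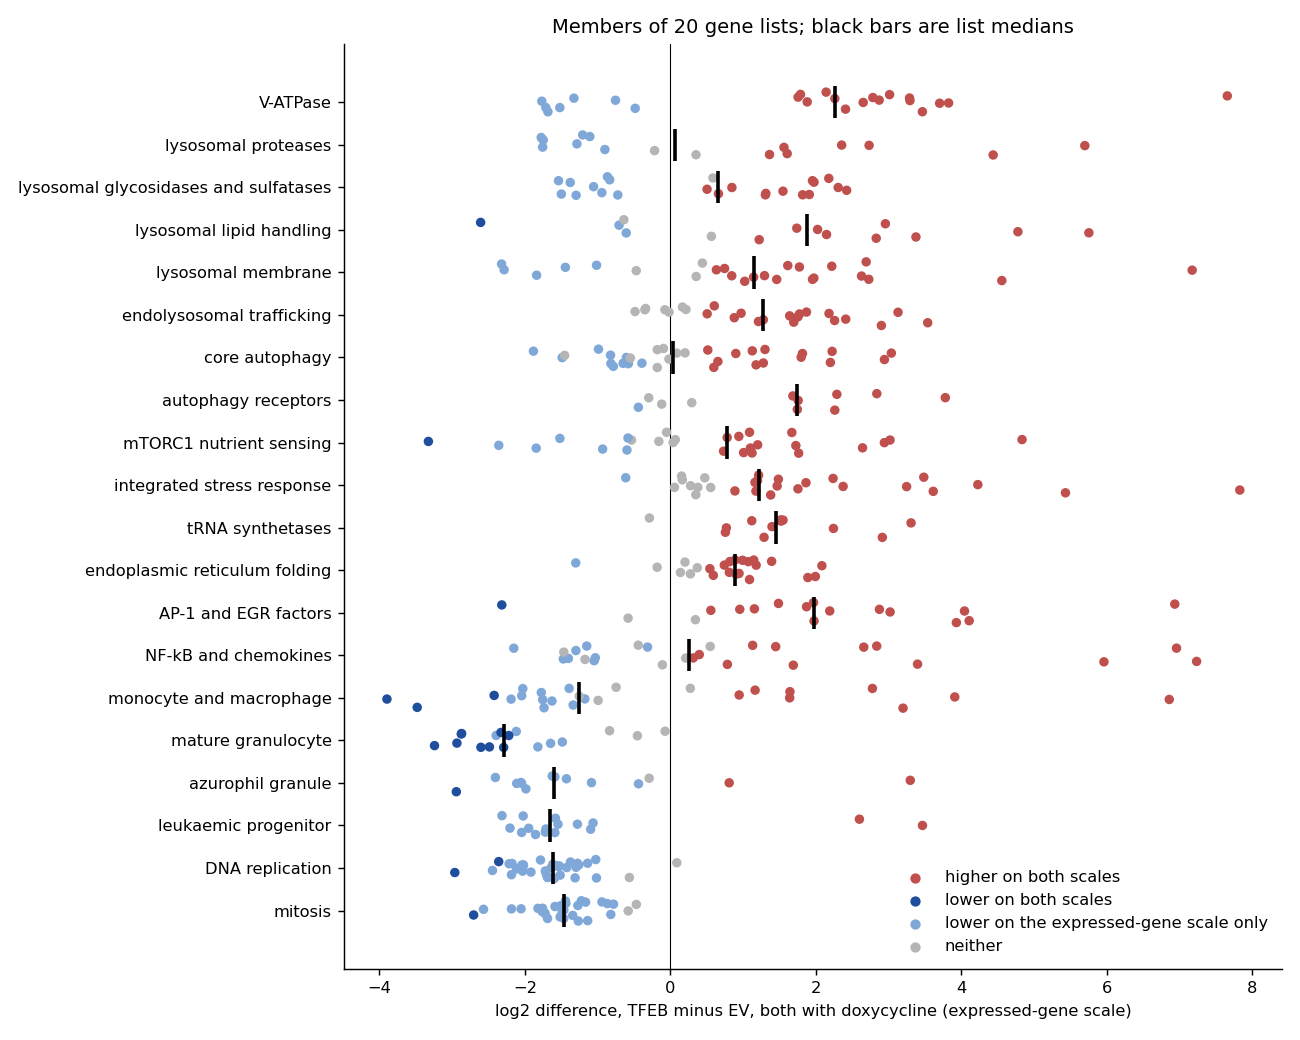
Log2 difference between TFEB and EV with doxycycline for every tested member of 20 gene lists; each point is a gene, red where higher on both scales, dark blue where lower on both, light blue where lower on the expressed-gene scale only, grey otherwise, and the vertical offset within a row is random. List medians (black bars) run from 2.26 for the V-ATPase to -2.29 for the mature granulocyte genes, beside -1.25 over all tested genes and 0.01 over the expressed genes.

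Outside the lysosome, 18 of 27 genes of the integrated stress response were higher on both scales. This program, set off when translation initiation is restrained, runs through ATF4 and its partners to genes of amino acid supply. The list median was 1.21, and 1 expressed member, KLHL24, was lower on the expressed-gene scale (log2 difference -0.61, and 0.76 on the deposited scale). GDF15, a secreted stress hormone, stood at 22.6, 31.5 and 57.4 in EV and at 6458, 9576 and 8513 in TFEB. DDIT3 (CHOP) stood at 219, 160 and 138 in EV and at 3356, 2775 and 3473 in TFEB. Neither overlapped, with log2 differences of 7.83 (SE 0.47) and 4.23 (SE 0.17). ATF4 itself rose less, from 6765, 5853 and 5494 to 13945, 13338 and 13175, a log2 difference of 1.16 (limma adjusted p = 1.6e-05). NUPR1, TRIB3 and ASNS were higher by 5.43, 3.48 and 2.38, whereas the serine-synthesis genes PHGDH and PSPH had 0.17 and 0.16.

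Cytosolic tRNA synthetases, which charge tRNAs with amino acids, were higher on both scales for 11 of 12 genes, with a median of 1.46. GARS rose from 3022, 2158 and 2687 to 22916, 27650 and 26986, and WARS from 3433, 2470 and 2136 to 21624, 19277 and 18668. Both were separate by far more than the spread, at 3.31 and 2.92. LARS was the exception, with a log2 difference of -0.29 (limma adjusted p = 0.050).

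Folding genes of the endoplasmic reticulum were higher on both scales for 17 of 23, with a median of 0.89. HSPA5, the chaperone BiP, stood at 3274, 3078 and 2836 in EV and at 9519, 13884 and 13685 in TFEB. The lowest TFEB library was still far above the highest EV library, a log2 difference of 1.99 (SE 0.16). SEC61B, of the translocation channel, and the co-chaperone DNAJB9 were higher by 2.08 and 1.89, XBP1 and ATF6 by 0.99 and 0.90, and CRELD2 had -1.30 on the expressed-gene scale and 0.07 on the deposited scale.

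Immediate early factors were nearly all higher: 14 of 17 AP-1 and EGR genes on both scales, with a median of 1.97. EGR1 rose from 45.2, 48.5 and 83.2 to 6966, 7856 and 6454. MAFF rose from 41.4, 36.7 and 66.0 to 802, 799 and 749. Their groups were separate, with log2 differences of 6.94 (SE 0.34) and 4.05 (SE 0.37). KLF2, a factor of quiescent leukocytes, went from 122, 119 and 94.6 to 20.4, 23.7 and 20.7 (log2 difference -2.32), and its adjusted p on the deposited scale was 0.039, a call that was lost without EV replicate 1 or 2 or TFEB replicate 1 or 3.

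NF-kB genes and chemokines were higher on both scales in 12 of 26 tested cases (27 listed), with a median of 0.26. IL8, which draws neutrophils, stood at 54.6, 49.9 and 83.2 in EV and at 3428, 13908 and 17098 in TFEB. CCL3 stood at 17.9, 23.6 and 43.0 in EV and at 1954, 4314 and 4680 in TFEB. TFEB replicate 1 was the lowest of its group for both, yet above every EV library, and the log2 differences were 7.24 (SE 0.52) and 6.96 (SE 0.54). The cytokines TNF and IL1B did not follow, at -1.05 and -1.40 on the expressed-gene scale and 0.30 and -0.05 on the deposited scale.

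Myeloid identity genes moved in both directions. Of 25 tested monocyte and macrophage genes (27 listed) 8 were higher on both scales, a number that was 5 without EV replicate 1, EV replicate 2, TFEB replicate 2 or TFEB replicate 3. The list median was -1.25, beside -1.25 over all tested genes. Summed over the 27 genes, of which 1 was at 0 in all 6 libraries, the level was 4874 to 5841 in the EV and 17047 to 22000 in the TFEB libraries. The scavenger receptor MARCO stood at 25.4, 42.0 and 106 in EV and at 5606, 5939 and 5722 in TFEB. ITGAX, the CD11c integrin chain, stood at 470, 459 and 416 in EV and at 5765, 7429 and 7173 in TFEB. MARCO and ITGAX together were most of the summed level in the TFEB libraries. CSF1R, the receptor for the monocyte growth factor, went the other way, from 770, 614 and 568 to 62.1, 33.2 and 37.0. In all 3 the groups were separate, with log2 differences of 6.86, 3.91 and -3.90, and CSF1R was also lower on the deposited scale (-2.53, limma adjusted p = 7.4e-06). The costimulatory CD86 had -3.48, and -2.13 on the deposited scale (adjusted p = 9.9e-07). The monocyte markers CD14 and VCAN had -1.18 and -1.63, and 0.18 and -0.29 on the deposited scale. Fewer cells of a type and less RNA per cell cannot be told apart in these bulk samples.

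Mature granulocyte genes were low and none of 17 tested (20 listed) was higher on both scales, while 9 were lower on both, a number that was 5 without EV replicate 1. Over all tested genes 5.37% were lower on both. The median was -2.29, where weakly expressed genes had -1.57, and only 2 of the 17 were expressed at a mean of 200. Summed over the 20 genes, the level was 5233 to 5777 in the EV and 916 to 1143 in the TFEB libraries. MNDA, a nuclear antigen of myeloid cells, stood at 801, 745 and 880 in EV and at 98.0, 97.1 and 121 in TFEB. S100A8, a calprotectin chain, stood at 161, 151 and 175 in EV and at 22.05, 10.66 and 18.03 in TFEB. Both were separate, at log2 differences of -2.93 (SE 0.14) and -3.24 (SE 0.49), and of -1.56 and -1.90 on the deposited scale (limma adjusted p = 0.0090 and 2.4e-05).

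Azurophil granule genes, which mark the promyelocyte stage of HL60, were present in both groups. Of 12 expressed genes (14 tested) 9 were lower on the expressed-gene scale, and the median over the 14 was -1.61. Their summed level was 22260 to 40390 in the EV and 14239 to 17409 in the TFEB libraries. MPO, the myeloperoxidase, stood at 27462, 24025 and 12135 in EV and at 4471, 3578 and 3368 in TFEB. The groups were separate, with a log2 difference of -2.40 (SE 0.29, limma adjusted p = 4.6e-06), but on the deposited scale the value was -1.03 with an adjusted p of 0.20. The cystatin CST7 was higher, from 734, 514 and 422 to 6363, 5306 and 4514 (log2 difference 3.30). ELANE, neutrophil elastase, had a log2 difference of 0.81 (limma adjusted p = 0.033) and lost its call without EV replicate 3, TFEB replicate 1 or TFEB replicate 2.

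The phagocyte oxidase list holds 7 genes, among them CYBRD1, which is not a subunit of that oxidase. Of the 7, 3 were higher on both scales, all 3 among the 6 expressed members. The other 3 of the 6 were lower on the expressed-gene scale. Among all expressed genes these shares were 36.4% and 35.4%. The cytosolic subunit NCF4 stood at 1629, 1632 and 1118 in EV and at 3154, 3407 and 3233 in TFEB, and the GTPase RAC2 was higher by 1.12. The membrane subunit CYBB stood at 762, 621 and 505 in EV and at 167, 140 and 175 in TFEB. NCF4 and CYBB were apart in opposite directions, at log2 differences of 1.18 and -1.95, the second of which was -0.58 (limma adjusted p = 0.37) on the deposited scale.

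Of the 9 expressed transcription factors of the myeloid lineage (13 tested), 5 were lower on the expressed-gene scale, beside 35.4% of all expressed genes. RUNX1 stood at 4528, 4059 and 4206 in EV and at 774, 841 and 811 in TFEB, and NFE2 at 618, 590 and 602 in EV and 55.5, 41.4 and 40.6 in TFEB. Both were separate, with log2 differences of -2.40 and -3.70, and NFE2 was lower on the deposited scale too (-2.34, limma adjusted p = 0.00012) while RUNX1 was not called there (adjusted p = 0.17). CEBPB rose from 409, 270 and 149 to 1753, 1559 and 1415, a log2 difference of 2.62. SPI1 (PU.1) stood at 2370, 2217 and 2099 in EV and at 2205, 2464 and 2235 in TFEB, which overlap, and its log2 difference was 0.05 (SE 0.11). CEBPA, at 17.9, 15.7 and 8.60 in EV and 15.5, 53.9 and 41.5 in TFEB, overlapped as well, and its call (limma adjusted p = 0.048) was lost when any one of 8 libraries was left out.

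Regulators and receptors of leukaemic progenitors were lower on the expressed-gene scale for 7 of 9 expressed genes (16 tested). FLT3, a receptor tyrosine kinase, stood at 500, 544 and 611 in EV and at 127, 90.0 and 115 in TFEB. The exceptions were the 2 factors GATA2, at 381, 363 and 336 in EV and 4599, 4035 and 3410 in TFEB, and BCL11A, at 521, 555 and 602 in EV and 3121, 3580 and 3492 in TFEB. None of these 3 overlapped, with log2 differences of -2.31, 3.47 and 2.60, and for FLT3 the deposited-scale value was -0.94 (limma adjusted p = 0.12). Among integrins and adhesion genes 4 of 14 were higher on both scales, all 4 among the 10 expressed members and so a share near the 36.4% of all expressed genes. ICAM1 had 2.27. In the same list 6 of 10 expressed were lower on the expressed-gene scale, and the weakly expressed ITGB7 had -3.90 there and -2.55 on the deposited scale.

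Cell cycle genes were lower relative to the expressed genes as a body. In DNA replication 30 of 32 expressed genes (37 tested), and in mitosis 26 of 26 (30 tested), were lower on the expressed-gene scale, where 35.4% of all expressed genes were. The list medians were -1.61 and -1.46. PCNA, the polymerase clamp, stood at 1031, 879 and 961 in EV and at 178, 204 and 146 in TFEB. MKI67 stood at 14090, 10402 and 11659 in EV and at 6193, 3906 and 3563 in TFEB. Both were separate on this scale, at log2 differences of -2.44 and -1.44. On the deposited scale the medians were -0.24 and -0.10, PCNA had -1.07 (limma adjusted p = 0.11) and MKI67 -0.06 (adjusted p = 0.94). The number lower on both scales depended on the library and the tool. In DNA replication it was 2, but 8 without EV replicate 3, 1 without EV replicate 1, EV replicate 2, TFEB replicate 1 or TFEB replicate 3, 13 with DESeq2 and 25 with edgeR. In mitosis it was 1, but 3 without EV replicate 3, 2 without EV vehicle replicate 2, 0 without EV replicate 2 or TFEB replicate 1, 4 with DESeq2 and 12 with edgeR. The thymidine kinase TK1, at 207, 146 and 143 in EV and 24.5, 21.3 and 15.3 in TFEB, and the kinesin KIF20A, at 270, 331 and 272 in EV and 40.0, 39.7 and 52.3 in TFEB, were lower on both scales. Their log2 differences were -2.96 and -2.70, and -1.62 and -1.34 on the deposited scale. KIF20A was the 1 mitosis gene called, and lost its call without EV replicate 2 or TFEB replicate 1.

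Regulators of G1 moved apart. CDKN1A (p21), a CDK inhibitor, rose from 109, 98.4 and 158 to 4513, 4821 and 4681, a log2 difference of 5.28 (SE 0.31, limma adjusted p = 1.2e-09). CDKN2C (p18), another CDK inhibitor, went from 617, 539 and 439 to 56.3, 52.7 and 55.9, a log2 difference of -3.24 that was -1.87 (adjusted p = 0.0010) on the deposited scale. These 2 inhibitors were thus separate in opposite directions. Of 17 genes, 8 of 11 expressed were lower on the expressed-gene scale, and CDK4 was higher on both by 1.54.

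In the MYC network, MYC stood at 4502, 5676 and 5890 in EV and at 2462, 3877 and 3782 in TFEB. These do not overlap, with a log2 difference of -0.69 (limma adjusted p = 0.016) on the expressed-gene scale and 0.69 (adjusted p = 0.38) on the deposited scale, and the first call was lost without TFEB replicate 1. MYC's partner MAX and the antagonist MXD1 were higher on both scales by 1.42 and 1.44, and MLX by 2.17. MXD4 had -2.76, and -1.39 on the deposited scale (adjusted p = 0.011), a call on both scales that was lost without EV replicate 1, EV replicate 2 or TFEB replicate 3. Ribosome biogenesis genes, many of them known MYC targets, were higher on both scales for 8 of 30, with a median of -0.06. All 8 were among the 27 expressed, and 7 of the 27 were lower on the expressed-gene scale. Among all expressed genes these shares were 36.4% and 35.4%. The nucleolar proteins NCL and NPM1 were higher by 1.68 and 1.64. Of 77 tested cytosolic ribosomal protein genes (78 listed), 9 were higher on both scales, a number that was 16 without EV replicate 1, 2 without TFEB replicate 2 and 5 without TFEB replicate 3. Their median of 0.16 on the expressed-gene scale was close to that of the expressed genes, 0.01.

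The isocitrate dehydrogenases and enzymes of DNA methylation were divided. IDH1, the cytosolic enzyme, stood at 351, 375 and 470 in EV and at 1309, 2454 and 2637 in TFEB. IDH2, the mitochondrial enzyme, stood at 1671, 1451 and 720 in EV and at 1008, 563 and 571 in TFEB. The IDH1 groups were separate, with a log2 difference of 2.36 (SE 0.22, limma adjusted p = 2.9e-07), and the IDH2 groups overlapped, with -0.81 (SE 0.27, adjusted p = 0.017) on the expressed-gene scale and 0.57 (adjusted p = 0.46) on the deposited scale. The IDH2 call was lost without EV replicate 1 or 2 or TFEB replicate 2 or 3. TET2, which oxidises methylcytosine, stood at 2807, 2605 and 2340 in EV and at 1840, 1296 and 1204 in TFEB, and UHRF1, which guides maintenance methylation, at 841, 804 and 473 in EV and 123, 117 and 128 in TFEB. Both were separate, at -0.86 and -2.47 on the expressed-gene scale and at 0.52 and -1.10 (adjusted p = 0.49 and 0.10) on the deposited one. In all 5 of 15 genes were higher on both scales, all 5 among the 11 expressed. On the expressed-gene scale 5 of the 11 were lower, a number that was 3 without EV replicate 2 or TFEB replicate 3. Among all expressed genes these shares were 36.4% and 35.4%.

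Survival and death genes of the BCL2 family were mixed, with 9 of 22 higher on both scales. Of the 14 expressed members 7 were higher, beside 36.4% of all expressed genes. The survival factors BCL2A1, from 45.2, 39.4 and 57.4 to 1121, 1833 and 2269, and BCL2L1, from 203, 252 and 249 to 1594, 1607 and 1522, were higher by 5.13 and 2.75. The BH3-only killer BBC3 (PUMA) was higher by 2.09 and BMF had -2.03, and -0.66 on the deposited scale (limma adjusted p = 0.31). Antigen presentation genes were higher on both scales for 9 of 20 tested and for 8 of 12 expressed. The class I genes HLA-B, HLA-C and B2M were higher by 1.82, 1.77 and 1.11. The class II chain HLA-DRA and the invariant chain CD74 had -1.77 and -1.59, and -0.48 and -0.21 on the deposited scale. Of 33 interferon response genes, 7 of them expressed, 3 were higher on both scales, beside 14.2% of all tested genes. Another 4 were lower on both scales, beside 5.37% of all tested genes. The number lower was 1 without EV replicate 1 or EV replicate 2 and 2 without TFEB replicate 1 or 3. IFITM3, an antiviral membrane protein, at 47.1, 74.8 and 71.7 in EV and 7.35, 7.10 and 11.7 in TFEB, had -2.75, and -1.45 on the deposited scale (limma adjusted p = 0.00089). HLA, IFITM and ribosomal protein genes share sequence with near-identical copies, so their counts are uncertain. Of 158 named genes with annotated exons in GENCODE 29, 55 overlap exons of a gene on the opposite strand, whose reads cannot be told apart where counting ignored strand.

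Counts of metabolic genes over tested members stand beside the 14.2% of all tested genes that were higher on both scales. Counts over expressed members stand beside the 36.4% of all expressed genes. The latter were 6 of 9 iron, 12 of 23 glycolysis and pentose phosphate and 19 of 36 respiratory chain genes. They were 5 of 8 for thiol and NRF2 genes and 2 of 5 for efflux and lipid storage. FTH1, the ferritin heavy chain, rose from 4649, 3370 and 2776 to 19495, 21907 and 19239, and the haem oxygenase HMOX1 from 37.6, 57.7 and 57.4 to 525, 545 and 458. With FTL, TFRC, SLC11A2 and NCOA4, these made 6 of 11 iron genes higher on both scales. In glycolysis and the pentose phosphate path 12 of 26 genes were higher on both scales, with HK2 going from 411, 442 and 433 to 5743, 4627 and 4259 (log2 difference 3.49). Of 44 nuclear-encoded respiratory chain genes 22 were higher on both scales, with a median of 0.47, and the complex II subunit SDHB was higher by 2.88. Of 13 mitochondrially encoded mRNAs none was called on both scales and the median was -0.90 on the expressed-gene scale and 0.48 on the deposited scale. PPARGC1A, a coactivator of mitochondrial biogenesis, was higher by 2.91 and the mitochondrial factor TFAM had -0.19. Thiol and NRF2 genes were higher on both scales for 5 of 11 tested (12 listed), led by TXN (2.58). Cholesterol synthesis and uptake genes were higher on both scales for 7 of 23, a number that was 4 without EV replicate 3 or TFEB replicate 2. Of the 16 expressed members 6 were higher, near the share of all expressed genes. LSS was higher by 3.61, and TM7SF2 had -3.23, and -1.88 on the deposited scale (limma adjusted p = 0.00010). The lipid droplet protein PLIN2 was higher by 3.15, one of 3 of 8 genes of efflux and lipid storage higher on both scales.

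Among genes with a mean of 50 or more, called on both scales and with libraries that did not overlap, the 12 largest rises by the log2 difference on the expressed-gene scale were DDX39BP2, TM4SF19, GDF15, ATP6V0D2, SPINK1, RGCC, CCL18, LINC01050, IL8, GPNMB, CCL3 and PPY, from 8.67 to 6.95. RGCC, a regulator of the cell cycle, stood at 22.6, 49.9 and 57.4 in EV and at 7331, 7572 and 7836 in TFEB. CCL18, a chemokine of alternatively activated macrophages, stood at 6.59, 24.9 and 57.4 in EV and at 3288, 4204 and 3759 in TFEB. Their log2 differences were 7.52 and 7.37, and separate libraries were a condition of the choice. DDX39BP2 is a pseudogene whose reads may be shared with its parent gene. The 12 largest falls, chosen in the same way, were S100A4, LOXL4, ZNF467, CALHM2, ITGB7, GAPT, CSF1R, NFE2, GLIPR1, GPR162, CYSLTR1 and IGFBP4, from -4.47 to -3.59. S100A4, a calcium-binding protein of motile cells, stood at 603, 651 and 433 in EV and at 31.9, 16.6 and 26.1 in TFEB, and LOXL4, a lysyl oxidase, at 886, 1341 and 1540 in EV and 38.4, 64.5 and 68.5 in TFEB. On the deposited scale the 2 were lower by -3.12 and -3.07 (limma adjusted p = 4.0e-08 and 1.2e-09).

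Genes of other lineages were listed to see whether they moved with these results. The summed level of 15 lymphoid genes was 645 to 1554 in the EV and 7354 to 9000 in the TFEB libraries. On both scales 3 of them were higher and 3 lower, beside 14.2% and 5.37% of all tested genes. The number lower was 1 without TFEB replicate 3, 5 with DESeq2 and 8 with edgeR. CD22, a B cell lectin, stood at 64.0, 89.2 and 155 in EV and at 5955, 7551 and 7131 in TFEB, most of the summed level there. CD22, TRAC and NKG7 rose by 6.14, 4.46 and 2.25, whereas the defining MS4A1, CD3E and CD3D had -1.74, -1.62 and -2.63, and -0.40, -0.31 and -1.42 on the deposited scale. Sums of 13 erythroid and megakaryocyte genes were 177 to 485 in EV and 78.7 to 98.0 in TFEB, with 4 of 13 tested, and those of 11 stromal and epithelial genes were 548 to 2113 in EV and 220 to 371 in TFEB. No member of these 3 lists was at 0 in all 6 libraries, and their part in the results was not tested.

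No single gene was called between the 2 lines given vehicle, which does not show that the lines were alike. With vehicle in place of doxycycline, limma called 0 genes (0.0%) between TFEB and EV on either scale, where 1754 genes on the deposited and 2004 on the expressed-gene scale had an unadjusted p under 0.05. The median vehicle difference of tested genes under a mean of 200, with the mitochondrial genes, was 0.72 on the expressed-gene scale. On the deposited scale it was 0.11. Expressed genes had medians of -0.001 and -0.66 on these 2 scales. No other tool was run on the vehicle libraries. The test of the difference between the drug and vehicle contrasts called 8177 genes (35.4%) on the deposited and 15910 (68.8%) on the expressed-gene scale, of which 2532 (10.9%) were more positive and 1422 (6.15%) more negative with the drug on both scales. Among the 7290 expressed genes these were 2266 (31.1%) and 5 (0.0686%). GDF15 had a vehicle difference of 1.31 beside 7.83 with the drug, TM4SF19 1.57 beside 7.93 and IER3 1.46 beside 5.96, while CTSD, CTSA and GM2A had 0.28, -0.03 and 0.01 beside 5.70, 4.44 and 5.75. The TFEB and the EV libraries with the drug all enter both the drug contrast and this test, so the 2 are not independent.

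**Figure D5:**
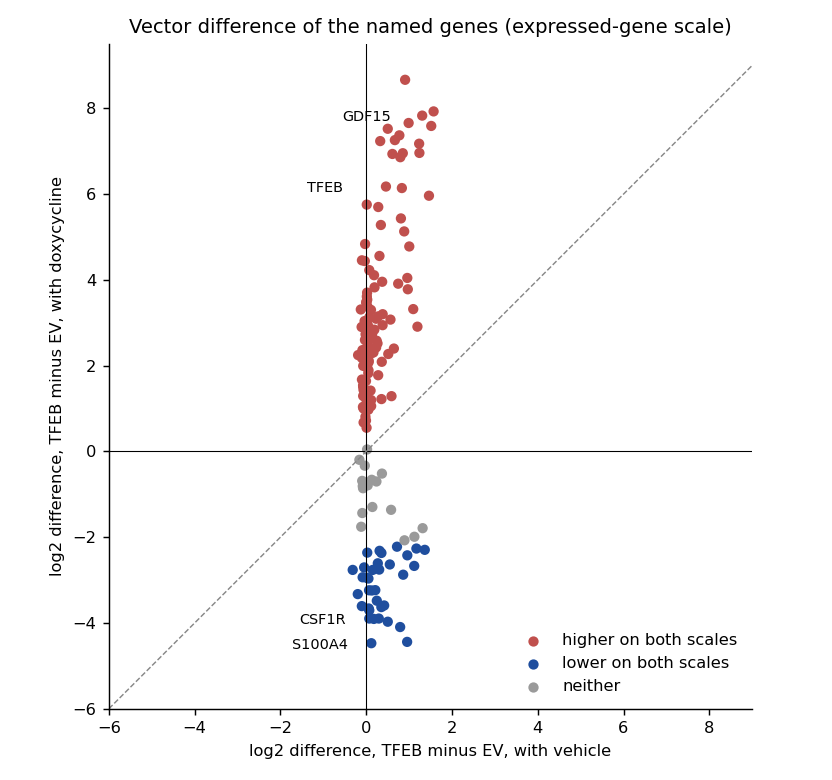
Log2 difference between TFEB and EV with vehicle (x axis) and with doxycycline (y axis) for the named genes on the expressed-gene scale; each point is a gene, red where higher on both scales with doxycycline, dark blue where lower on both and grey otherwise, and the dashed line marks equal differences. The vehicle differences of TFEB and GDF15 are 0.46 and 1.31, beside 6.18 and 7.83 with doxycycline.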

How the data were processed

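RNA sequencing of HL60 cells gave 12 libraries in 4 groups of 3. The tools named are STAR 2.5.3a and HTSeq 0.6.1, per the submitters' processing notes. Build, annotation and strand setting: not given in the sources used here. The deposited values are a normalised signal in which the authors divided the read counts of each library by 1 factor. Whole reads were recovered from these steps, within a tolerance of 0.01, in the 6 doxycycline libraries. Their recovered totals ranged from 4474007 to 20267420.

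Genes with a mean of at least 10 were tested with limma 3.58.1 (R 4.3.3) on log2(value + 1), with 1 mean per group over the 12 libraries, a variance trend and Benjamini-Hochberg adjustment at 0.05. This was done on the deposited scale and on the expressed-gene scale, whose factor used 7288 genes above 0 in every library. edgeR 4.0.16 and DESeq2 1.42.0 were run on the recovered reads as alternatives. In simulated data for this comparison, with 200 of 23128 genes changed, 32% of the 2-fold and 64% of the 4-fold changes were called, with 9 false calls. The simulated reads were divided by the same factors they were drawn with, and no shift between scales was simulated. The false calls there therefore say nothing about errors from the choice of scale. Replicate libraries differed beyond sampling noise. The p-values of single shares are from exact two-sided permutation tests.

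The members and the 43 gene lists were chosen with earlier results of these data known. Genes were named by rule (10 chosen genes, the 12 largest changes in each direction of genes whose mean was 50 or more, that were called on both scales and whose libraries did not overlap, and the leading members of each list), and other genes named were chosen after their values were seen. Other scalings, filters, pseudocounts, tools and left-out libraries were tried. Some results are not reported here.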

Additional observations from a re-analysis of the deposited data

Results flagged for a closer look

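The vector difference itself differed between doxycycline and vehicle by the limma interaction test. On both scales it was more positive with doxycycline for 2532 genes and more negative for 1422. For TFEB the difference between the 2 contrasts was 5.72 on the log2 scale (limma adjusted p = 3.7e-09), and for IDH1 it was 2.45 (limma adjusted p = 2.1e-05). Neither gene was past the threshold between the 2 lines given vehicle.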

How the results depend on the processing

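Counts of rises changed less than counts of falls. On the deposited scale, 3072 genes were higher after scaling to equal totals, 3900 after scaling to equal upper quartiles and 2328 with a minimum fold of 2. Genes lower on that scale numbered 2419 with DESeq2, 3523 with TMM factors, 6057 with edgeR and TMM, 14309 with equal totals, 11350 with equal upper quartiles, 356 at a mean of at least 50 and 25 with a minimum fold of 2. Leaving out single libraries gave 672 to 1655, both on the deposited scale and on both scales together, where a mean of at least 50 gave 356 and a minimum fold of 2 gave 25. On the expressed-gene scale, genes higher numbered 1078 with a minimum fold of 2, as on both scales. Genes lower there numbered 5602 at a mean of at least 50, 1109 with a minimum fold of 2 and 7736 to 14735 without single libraries. The interaction test called 15910 genes on the expressed-gene scale. SPI1 reversed to -0.36 (limma adjusted p = 0.0058) when the factor used genes at a mean of at least 1000. The cause of these shifts was not tested. Of 3852 recomputed differences of the 161 genes named by rule, 3757 kept call and direction, 80 lost and 14 gained a call and 1 reversed. Of 2006 recomputed list counts 234 moved by over 1.5 times. The edgeR and DESeq2 list counts were chosen after seeing the data.

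With the replicate number as a replicate block, limma called 6777 genes higher and 1524 lower on the deposited scale, 3473 and 13904 on the expressed-gene scale and 3473 and 1524 on both. Same-numbered libraries had correlations of 0.283, -0.127 and 0.363, and differently numbered ones had -0.349 to 0.208. TFEB replicates 1 and 3 correlated most with the EV library of their own number, and replicate 2 did not. The numbers were not taken to pair the samples, and whether they do was not tested.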

Other observations

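CIR1, a transcriptional corepressor gene chosen here after its values were seen, had rank 5 among nuclear genes in the TFEB libraries with doxycycline. It took 0.353%, 0.728% and 0.861% of the nuclear total there and 0.00592%, 0.00635% and 0.00899% in the EV libraries. The groups did not overlap, with a log2 difference of 6.77 (SE 0.31, limma adjusted p = 1.2e-10) beside 0.28 with vehicle. Among the 12 most abundant nuclear genes of the TFEB libraries were also the lysosomal genes CTSD, at rank 10, and GM2A, at rank 12, which took 0.366%, 0.397% and 0.384% of the nuclear total against 0.0108%, 0.00859% and 0.00762% in EV.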
